A study of Mus musculus with 18 samples.

Results

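*Malat1*, *Neat1*, *Meg3*, *Rian*, *Mirg*, *Miat* and *Snhg11* are 7 long noncoding RNA genes known to be expressed in brain. They were taken by name from the 38561 genes counted in mRNA libraries of adult WT and *Pcm1*-/- mice, and each name matched 1 Ensembl identifier. All 7 reached 10 counts in at least 1 library and were among the 17545 genes tested. The question was how the levels of these RNAs differed with the loss of *Pcm1*, which encodes a centriolar satellite protein, and among 3 brain regions. The samples were 18 libraries in 6 groups of 3, from frontal cortex, striatum and hippocampus of WT mice and of *Pcm1*-/- mutant littermates, labelled PCM1 KO. Mutants descend from embryonic stem cells with a gene-trap insertion in *Pcm1*. The labels give both genotypes as adult animals of the C57 Bl6J background. The labels name no drug treatment, and the tissue was snap-frozen. The study took all 3 regions from each animal, and 3 animals per genotype were sequenced. Which libraries share an animal is not stated in the labels, and was taken from a tag in the names under which the libraries were deposited. The tag follows the replicate numbers of the labels except in WT striatum, where replicates 1, 2 and 3 carry the tags of animals 3, 1 and 2. Every value by animal rests on this tag. Animals are numbered here as WT animals 1 to 3 and mutant animals 1 to 3.

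Long noncoding RNAs are transcribed by RNA polymerase II, and most are capped and spliced like mRNA without being translated. *Malat1* and *Neat1* are neighbours that stay in the nucleus, where *Malat1* gathers in splicing factor speckles and *Neat1* forms the scaffold of paraspeckles. *Meg3*, *Rian* and *Mirg* lie in a row in the imprinted *Dlk1*-*Dio3* domain, are expressed from the maternal chromosome, and carry many small RNAs in their exons and introns. *Miat*, also called Gomafu, is a nuclear RNA of neurons that binds splicing factors, and *Snhg11* hosts small nucleolar RNAs in its introns. The libraries were made from RNA captured by its poly(A) tail. The mature 3′ end of *Malat1* and of the long form of *Neat1* is not polyadenylated but folds into a triple helix, so their counts report the captured molecules and not all molecules of these genes.

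On GRCm38, *Malat1* (ENSMUSG00000092341) lies at chr19:5795690-5802672 on the minus strand and *Neat1* (ENSMUSG00000092274) at chr19:5824708-5845478, also on the minus strand, 22035 bases away. *Meg3* (ENSMUSG00000021268) spans chr12:109541001-109571726 on the plus strand. *Rian* (ENSMUSG00000097451, chr12:109603940-109661716) follows 32213 bases after it, and *Mirg* (ENSMUSG00000097391, chr12:109729764-109749460) another 68047 bases on. *Miat* (ENSMUSG00000097767) is at chr5:112213228-112229395 on the minus strand and *Snhg11* (ENSMUSG00000044349) at chr2:158375638-158386145 on the plus strand. The annotation calls *Snhg11* protein coding and the other 6 long noncoding or processed transcripts. Genes overlapping the exons of the members, as far as they were counted, held 0 to 4 counts in any library, and the antisense genes inside *Meg3* and *Miat* had 0 in all. The kit keeps the strand, but the strand setting of the counting is not given in the sources used here, so reads from a member and from an antisense transcript cannot be told apart.

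*Meg3*, *Mirg*, *Miat* and *Snhg11* are the genes whose levels moved together from animal to animal, as shown further on, although they lie on 3 chromosomes. The promoters of 3 of them are shown for that reason, taken from RefSeq on GRCm38.p6 and running from 250 bases before the start to 50 after it. RefSeq starts lie 5, 447 and 75 bases from those of the annotated *Meg3*, *Miat* and *Snhg11* genes. The RefSeq entry for *Mirg* starts 5217 bases from the start of the annotated gene and is not shown. Capitals mark TGACGTCA, the palindrome known as the full cAMP response element, and TATAAA on either strand.
Meg3 promoter, chr12:109540746-109541045, plus strand: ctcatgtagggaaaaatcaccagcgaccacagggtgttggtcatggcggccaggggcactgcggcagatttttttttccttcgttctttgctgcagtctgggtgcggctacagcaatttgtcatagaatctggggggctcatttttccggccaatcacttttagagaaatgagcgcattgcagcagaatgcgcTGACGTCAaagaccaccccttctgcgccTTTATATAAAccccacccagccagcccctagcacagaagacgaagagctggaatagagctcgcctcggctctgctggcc
Miat promoter, chr5:112228899-112229198, minus strand: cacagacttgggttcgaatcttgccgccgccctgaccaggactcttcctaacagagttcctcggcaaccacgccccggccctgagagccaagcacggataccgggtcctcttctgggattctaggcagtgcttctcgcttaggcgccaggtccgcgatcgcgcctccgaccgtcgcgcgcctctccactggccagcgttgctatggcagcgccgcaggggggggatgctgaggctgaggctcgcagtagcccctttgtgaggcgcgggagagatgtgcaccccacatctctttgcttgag
Snhg11 promoter, chr2:158375463-158375762, plus strand: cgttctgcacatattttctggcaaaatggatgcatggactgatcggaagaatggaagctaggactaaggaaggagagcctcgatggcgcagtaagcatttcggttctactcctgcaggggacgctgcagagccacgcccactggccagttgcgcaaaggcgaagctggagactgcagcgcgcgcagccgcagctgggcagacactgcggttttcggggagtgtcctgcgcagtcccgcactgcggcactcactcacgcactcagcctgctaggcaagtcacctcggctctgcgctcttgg
In the *Meg3* promoter the cAMP response element begins 57 bases before the start. Of 32851 mouse promoters of this length, 588 (1.79%) hold TGACGTCA on either strand. TATAAA occurs there on both strands, in 2 overlapping matches that begin 29 and 25 bases before the start, and 13.6% of promoters hold it. Neither motif occurs in these windows of *Miat* and *Snhg11*. The windows are 53.7% (*Meg3*), 64.3% (*Miat*) and 60% (*Snhg11*) G and C.

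Of 14 miRNA hairpins that RefSeq places in *Mirg*, 4 lie wholly in its annotated exons, so that the spliced transcript contains them. Their mature sequences are printed with the seed, bases 2 to 8, in capitals, to show what this transcript carries. Both arms are shown except for miR-485, of which the RefSeq table used here lists the 3p arm.
mmu-miR-134-5p: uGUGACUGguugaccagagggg
mmu-miR-134-3p: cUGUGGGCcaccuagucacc
mmu-miR-485-3p: aGUCAUACacggcucuccucuc
mmu-miR-377-5p: aGAGGUUGcccuuggugaauuc
mmu-miR-377-3p: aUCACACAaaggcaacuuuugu
mmu-miR-410-5p: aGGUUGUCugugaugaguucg
mmu-miR-410-3p: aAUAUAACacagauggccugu
No 2 of these 7 share a seed. The mRNA libraries do not measure mature miRNAs, so the values of *Mirg* below are those of the host transcript. RefSeq places 3 hairpins in *Rian*, all in introns, and 1 in *Meg3*, in an exon.

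Between 24950537 and 33405081 reads were counted on genes per library, and 86.8% to 89.2% of the reads that entered counting were assigned. Counts on *Pcm1* itself were 3425 to 4919 in WT and 313 to 520 in mutants, so each library matched its labelled genotype. Striatal, cortical and hippocampal marker lists were each highest in the labelled region. Choroid plexus markers varied most, with a summed level of 51.2 to 6012 CPM in WT striatum and 30.5 to 165 CPM in mutant striatum. *Ddx3y*, on the Y chromosome, had 1437 to 2303 counts in the libraries of animal 2 of each genotype and 0 to 3 in the others, so each genotype comprised 1 male and 2 females. WT striatum was run in lane 5 and mutant striatum in lanes 3 and 4, and the effect of the lane cannot be told apart from that of the genotype in this region. In a check for duplicate deposits, none of the 18 pairs within a group agreed within sampling noise, and all were counted as separate samples.

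The 7 members covered a wide range of levels. Counts ranged from 69 to 322 on *Mirg*, 239 to 5117 on *Miat*, 481 to 3111 on *Neat1*, 4130 to 21944 on *Snhg11*, 4870 to 20273 on *Malat1*, 5192 to 10604 on *Rian* and 7082 to 35414 on *Meg3*. Together they took 0.0891% to 0.289% of the counts of a library. Levels are given as CPM, read counts scaled to a common library total after normalization for library composition. Per kilobase of annotated exon, the mean level in WT frontal cortex was 74.3 ± 19.4 CPM for *Snhg11*, 57.5 ± 15.2 for *Meg3*, 55.7 ± 9.53 for *Malat1*, 17.03 ± 1.07 for *Rian*, 15.3 ± 4.83 for *Miat*, 1.56 ± 0.674 for *Neat1* and 1.15 ± 0.344 for *Mirg* (SD, n = 3 each). The first 3 did not differ beyond their spread, nor did *Rian* and *Miat*, nor *Neat1* and *Mirg*. With the longest annotated transcript as the length instead, the order was the same except that *Mirg* (2.20) stood above *Neat1* (1.56), and *Rian* stood at 38.4 CPM per kilobase. In WT striatum the order was *Malat1* (73.7 ± 8.68 CPM per kilobase), *Snhg11* (44.8 ± 10.1), *Meg3* (39.8 ± 9.36), *Rian* (17.6 ± 0.956), *Neat1* (3.15 ± 1.02), *Miat* (1.56 ± 0.496) and *Mirg* (0.977 ± 0.253; SD, n = 3 each). *Snhg11* and *Meg3* did not differ there beyond their spread. In WT hippocampus *Malat1* (45.0 ± 21.0), *Snhg11* (32.0 ± 11.0) and *Meg3* (28.2 ± 11.6) overlapped in their spread, as did *Rian* (11.6 ± 0.847) and *Miat* (9.60 ± 3.77), and *Neat1* (3.42 ± 2.03) and *Mirg* (0.669 ± 0.275) were the lowest. Mutant libraries had the same 3 genes at the top and *Neat1*, *Mirg* and, in striatum, *Miat* at the bottom.

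**Figure D1:**
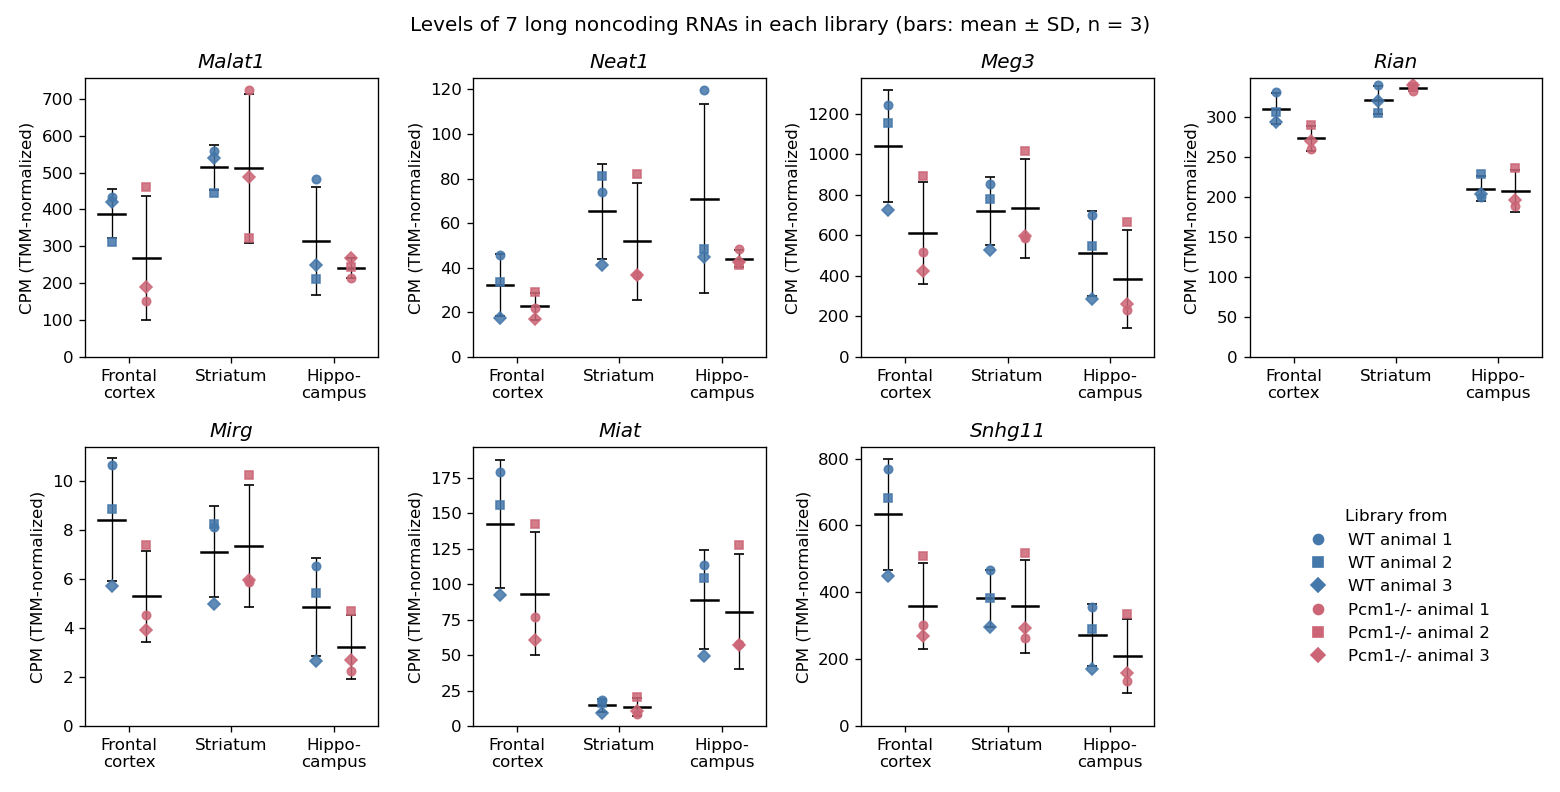
Level of each long noncoding RNA in each of the 18 libraries, in CPM (y axis, from 0) by brain region (x axis), WT in blue and *Pcm1*-/- in red, with 1 symbol per animal and black bars for the mean ± SD of 3 libraries. *Miat* is at 8.54 to 20.7 CPM in all 6 striatum libraries and at 49.1 to 179 CPM in the other 12, and in most panels the diamonds of WT animal 3 lie low and the squares of mutant animal 2 lie high.

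No member passed the test for a difference between genotypes in any region. In the frontal cortex all 7 had a log2 fold change below 0 in mutants, from -0.82 for *Snhg11* to -0.19 for *Rian*. In the hippocampus all 7 were below 0, from -0.70 for *Neat1* to -0.04 for *Rian*. These signs are not independent, since the regions came from the same animals. *Meg3*, *Mirg*, *Miat* and *Snhg11* also moved together from animal to animal. Without WT animal 1, hippocampal estimates moved to -0.10 for *Neat1*, -0.12 for *Meg3*, -0.16 for *Snhg11*, -0.35 for *Mirg*, 0.05 for *Miat* and 0.06 for *Malat1*. Without mutant animal 2 they moved the other way, to -1.05 for *Meg3*, -0.98 for *Mirg*, -0.90 for *Snhg11*, -0.65 for *Miat* and -0.14 for *Rian*. In the striatum the estimates lay between -0.33 for *Neat1* and 0.07 for *Rian*. Striatal *Neat1* was at -0.83 without mutant animal 2 and at -0.13 without mutant animal 1.

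With edgeR's quasi-likelihood test, 0 of 7 members were called at an adjusted p under 0.05 in the frontal cortex, where 1.74% of all genes tested were called. At an unadjusted p under 0.05 there were 4 (*Meg3*, *Rian*, *Mirg* and *Snhg11*), against 15.3% of all genes, and DESeq2 called none, with 3 at an unadjusted p under 0.05. With lane in the cortical fit, 0 members reached an unadjusted p under 0.05, with a median of -0.43, and 0.165% of all genes were called. Of the cortical libraries only that of WT animal 1 was run in lane 3, so it adds nothing to this estimate. In the striatum 0 of 7 were called by either tool (0.0285% of all genes by edgeR) and in the hippocampus 0 of 7 (0.0171%). In the main edgeR test and with DESeq2, none reached an unadjusted p under 0.05 in these regions, where 13.5% and 9.89% of all genes did by edgeR. With lane in the hippocampal fit, 2 of 7 reached an unadjusted p under 0.05, with a median of -0.45, and 0 were called (0.0114% of all genes). The median log2 fold change of the 7 was -0.61, -0.01 and -0.40 in frontal cortex, striatum and hippocampus, and that of all genes tested was -0.01, 0.00 and 0.00. In the fit of all 18 libraries with lane, the striatal median of the 7 was -0.52.

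*Snhg11* had the largest estimate in the frontal cortex. Its levels there were 768, 682 and 449 CPM in WT animals 1 to 3 and 302, 508 and 270 CPM in mutant animals 1 to 3. The groups overlapped, since mutant animal 2 was above WT animal 3. The log2 fold change was -0.82 (95% interval -1.39 to -0.25), which did not pass after adjustment over all genes (edgeR, adjusted p = 0.168). Without WT animal 3 it was -1.02 and passed (edgeR, adjusted p = 0.0386, within a range of 0.0175 to 0.757 over all alternatives).

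*Meg3* in the frontal cortex measured 1239.9, 1153 and 726 CPM in WT animals 1 to 3 and 519, 894 and 422 CPM in mutant animals 1 to 3. Again mutant animal 2 was above WT animal 3, and the groups overlapped. The log2 fold change was -0.77 (95% interval -1.40 to -0.14; edgeR, adjusted p = 0.234, within a range of 0.0175 to 0.844 over all alternatives). The lowest value came with the replicate number as a block, and the labels do not say what a number shares between genotypes. *Mirg*, the neighbour of *Meg3*, was at 10.7, 8.87 and 5.71 CPM in WT animals and 4.55, 7.41 and 3.93 CPM in mutants. It had the same order of animals and a log2 fold change of -0.67 (95% interval -1.29 to -0.05; edgeR, adjusted p = 0.293).

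*Rian* was the member whose libraries were closest to one another, and the only one whose cortical groups did not overlap. Its levels were 332, 306 and 294 CPM in WT animals 1 to 3 and 260.0, 290.4 and 270.2 CPM in mutant animals 1 to 3. The lowest WT library lay just above the highest mutant library. Groups without overlap were found in 21.3% of all genes tested in the frontal cortex. In striatum (19% of all genes) and hippocampus (17.1%), no member had groups without overlap. The log2 fold change of -0.19 (SE 0.07) did not pass (edgeR, adjusted p = 0.215).

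*Malat1* did not pass in the frontal cortex, with 433, 312 and 421 CPM in WT animals 1 to 3 and 153, 460 and 191 CPM in mutant animals 1 to 3. Mutant animal 2 was above every WT library and the other 2 mutants below every one. The log2 fold change was -0.54 (SE 0.36; edgeR, adjusted p = 0.518), and it moved to -0.26 without mutant animal 1 and to -1.19 without mutant animal 2. The last of these passed (edgeR, adjusted p = 0.0483, within a range of 0.0483 to 0.837 over all alternatives).

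For *Neat1* and *Miat*, the cortical log2 fold changes were -0.51 (SE 0.30) and -0.61 (SE 0.32), with adjusted p = 0.475 and 0.410 by edgeR. Leaving out 1 library moved *Neat1* to between -0.80 (without WT animal 3) and -0.18 (without WT animal 1), and *Miat* to between -1.06 (without mutant animal 2) and -0.38 (without mutant animal 3). Intervals were wide in the other regions as well. For *Neat1* in the hippocampus, the interval of the log2 fold change ran from -1.51 to 0.11, and for *Meg3* there from -1.45 to 0.61. For 6 of the 7 members the 95% interval spanned more than 1 on the log2 scale in every region. *Rian* was the exception, with intervals of -0.08 to 0.22 in the striatum and -0.28 to 0.20 in the hippocampus.

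**Figure D2:**
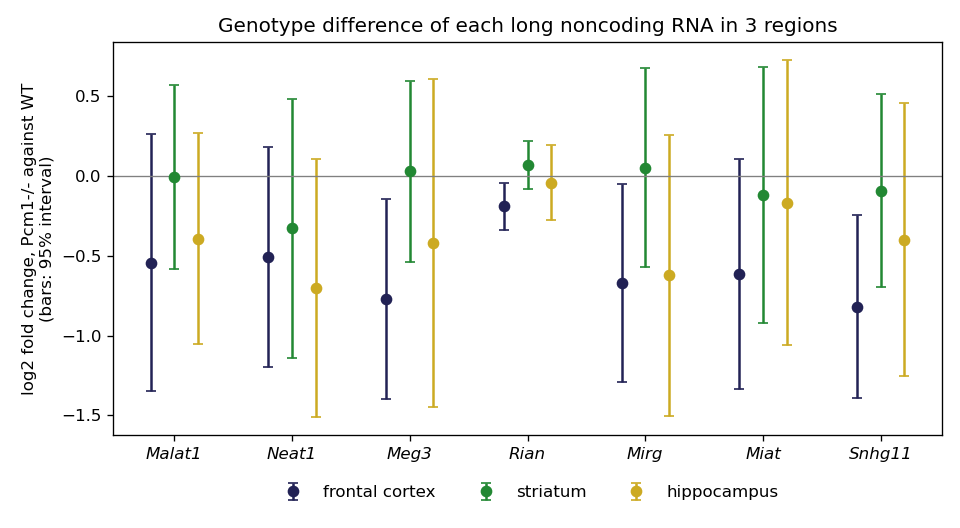
Log2 fold change of each long noncoding RNA in *Pcm1*-/- against WT (y axis), with its 95% interval from edgeR, by gene (x axis) and region (colour), 3 libraries per genotype. All 7 cortical and all 7 hippocampal estimates lie below 0, the striatal ones lie around 0, and the intervals of *Rian* are the narrowest.

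Microglia and oligodendrocyte markers were measured beside these values, since either could follow a change of cell makeup. In bulk tissue, fewer cells of a type and less RNA per cell cannot be told apart. All 8 of 8 microglia markers and all 8 of 8 oligodendrocyte markers had log2 fold changes below 0 in mutants in each region, with none called. Of 5 oligodendrocyte precursor markers, 5 were below 0 in frontal cortex, 4 in striatum and 3 in hippocampus, and 1 was called lower, in frontal cortex. In the frontal cortex the summed oligodendrocyte markers ranged from 1998 to 2668 CPM in WT and from 1788 to 1897 CPM in mutants, and the summed neuron markers from 12649 to 13734 CPM in WT and from 14082 to 14475 CPM in mutants. Of 10 neuron markers, *Slc17a7* and *Syt1* were called higher in mutant frontal cortex, where 1.74% of all genes were called, and 3 of the 10 had estimates below 0. Of 8 striatum markers, *Penk* and *Drd1* were called higher there as well, and 2 of the 8 had estimates below 0. Summed striatum markers were at 205 to 227 CPM in WT and 259.9 to 291 CPM in mutants. The mitochondrial share of counts in frontal cortex was 5.65%, 4.62% and 4.05% in WT animals 1 to 3 and 3.34%, 3.56% and 3.20% in mutant animals 1 to 3, without overlap. The part of cell makeup, dissection and this share in the values of the members was not tested.

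Of 15 genes of the *Dlk1*-*Dio3* domain and its surroundings, 14 were tested and none passed in any region. In the frontal cortex, 13 of the 14 had estimates below 0 and a median of -0.17. The smallest p-values over the 3 regions belonged to striatal estimates above 0. *Begain*, at the edge of the domain, had a log2 fold change of 0.22 (SE 0.05; edgeR, adjusted p = 0.185), *Rtl1*, a retrotransposon-derived gene expressed from the paternal chromosome, 0.59 (SE 0.15; adjusted p = 0.198), and *Dlk1*, the paternally expressed Notch ligand relative, 0.96 (SE 0.32; adjusted p = 0.263). In the frontal cortex *Dlk1* was at -1.58 (SE 0.57; edgeR, adjusted p = 0.234).

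Paraspeckle proteins are the partners of *Neat1*, and 0 of 14 passed in any region, with *Hnrnph3* (-0.31, SE 0.11, frontal cortex) and *Taf15* (-0.18, SE 0.07, frontal cortex) below 0 and, in the striatum, *Smarca4* at -0.16 (SE 0.05). Among 15 nuclear speckle and splicing factors, the company of *Malat1*, only *Srrm2* was called and fell in mutant frontal cortex (1.74% of all genes were called there). *Srrm2*, a scaffold protein of speckles, measured 402 to 414 CPM in the 3 WT and 268 to 306 CPM in the 3 mutant libraries. Its log2 fold change was -0.52 (SE 0.06; edgeR, adjusted p = 0.00876), and it did not pass in the other regions.

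None of 9 splicing factors and other partners of *Miat* passed. The smallest p-values were those of *Sf1*, which binds the branch point and the repeats of *Miat*, at -0.24 (SE 0.07) in frontal cortex, of *Qk* at -0.22 (SE 0.07) in striatum and of *Nova1* at -0.24 (SE 0.08) in hippocampus. Of 18 small nucleolar RNA host genes, 12 were tested and 0 passed in any region, and after *Snhg11* the smallest p belonged to *Snhg20* (-0.52, SE 0.17, frontal cortex) and *Snhg12* (0.32, SE 0.15, striatum).

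Among 24 other long noncoding RNAs, 16 were tested and 1 fell, in frontal cortex, where 1.74% of all genes were called. *Ftx*, a neighbour of *Xist* in the X inactivation centre, measured 7.16 ± 0.361 CPM in WT and 4.84 ± 0.410 CPM in mutant frontal cortex (SD, n = 3 each). Its log2 fold change was -0.57 (SE 0.11; edgeR, adjusted p = 0.0442). Of 10 DNA methylation and imprinting factors, 0 passed in any region, *Zfp57*, a guardian of imprints, being at -0.34 (SE 0.17) in frontal cortex, *Tet3* at 0.18 (SE 0.09) in striatum and *Dnmt3a* at 0.13 (SE 0.07) in striatum.

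*Miat* was lowest in striatum, *Rian* in hippocampus and *Neat1* in frontal cortex, in 6 of 6 animals each. In WT, *Miat* in striatum was at 0.102 times its level in frontal cortex. *Meg3*, *Mirg* and *Snhg11* were lower in hippocampus than in frontal cortex in 6 of 6 animals. Since the 3 regions came from the same animals, each comparison was also fitted with the animal as a block, which takes out the level that an animal had in all regions.

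In WT mice, 1 of 7 members differed between striatum and frontal cortex (48.3% of all genes), 3 of 7 between hippocampus and frontal cortex (37.7%) and 2 of 7 between striatum and hippocampus (35.9%). With the animal as a block these became 4 (53.2% of all genes), 6 (43.1%) and 5 (40.9%). In mutants the counts were 4 (51% of all genes), 1 (37.8%) and 4 (41.5%) in the same order, and 5 (55.7%), 5 (42.8%) and 6 (46.1%) with the block. With 7 genes, counts of 3 or 4 lie near these shares of all genes, and the values of single members follow.

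**Figure D3:**
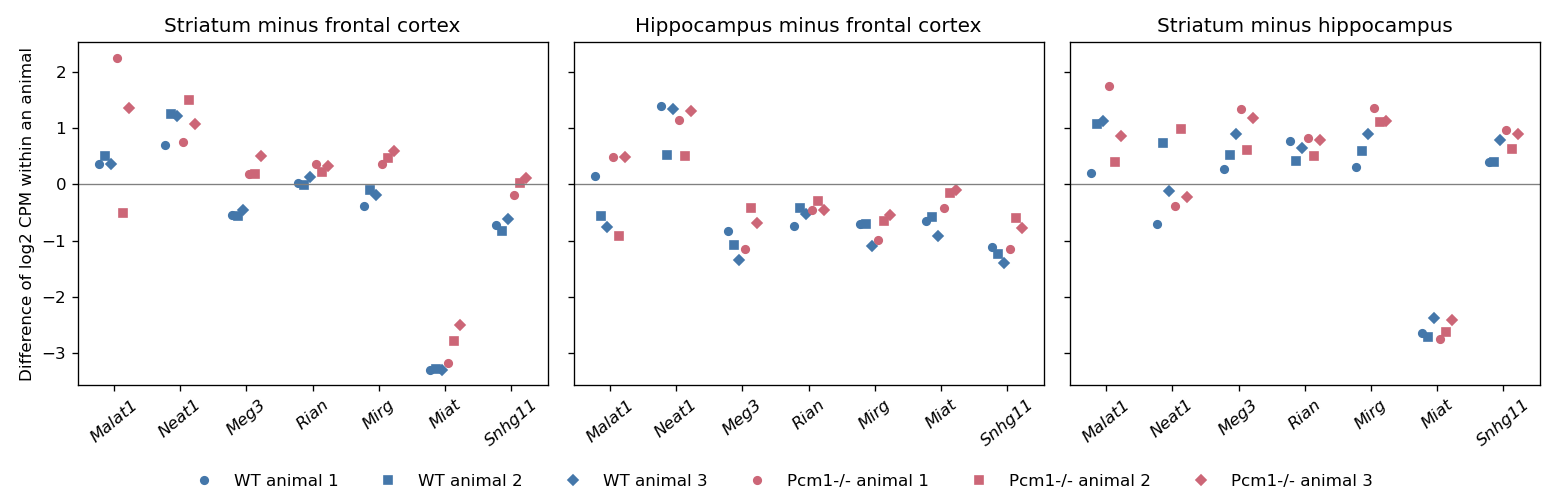
Difference of log2 CPM between 2 regions within each animal (y axis) for each long noncoding RNA (x axis), WT in blue and *Pcm1*-/- in red, 1 symbol per animal. *Miat* lies between -3.29 and -2.38 in striatum against both other regions in all 6 animals, and *Meg3*, *Rian*, *Mirg*, *Miat* and *Snhg11* are below 0 in hippocampus against frontal cortex in all 6.

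*Miat* measured 179, 156 and 92.4 CPM in the frontal cortex of WT animals 1 to 3, and 77.1, 142 and 60.7 CPM in that of mutant animals 1 to 3. In striatum the values were 18.3, 16.0 and 9.37 CPM in WT and 8.54, 20.7 and 10.7 CPM in mutants. In hippocampus they were 114, 105 and 49.1 CPM in WT and 57.6, 127 and 57.0 CPM in mutants. The striatum did not overlap with either other region in either genotype. Of all genes, 54.9% did not overlap between striatum and frontal cortex and 41.4% between striatum and hippocampus in WT, and 65.2% and 52.7% in mutants. Striatum against frontal cortex gave a log2 fold change of -3.29 (SE 0.46; edgeR, adjusted p = 1.77e-05) in WT and -2.81 (SE 0.46; adjusted p = 7.27e-05) in mutants. Within single animals the difference lay between -3.29 and -2.501, below 0 in 6 of 6. *Miat* was also lower in hippocampus than in frontal cortex in 6 of 6 animals, by 0.09 to 0.91 on the log2 scale, a difference that was called in WT only with the animal as a block (-0.71, SE 0.09) and was not called in mutants.

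*Rian* was the steadiest member. WT animals 1 to 3 had 332, 306 and 294 CPM in frontal cortex, 339.8, 305.0 and 320.3 CPM in striatum and 199.9, 228 and 204 CPM in hippocampus. In striatum and hippocampus, mutant animals 1 to 3 had 333, 337 and 340.3 CPM and 189, 237 and 197 CPM. The hippocampus was below both other regions without overlap in each genotype (against frontal cortex, 44.4% of all genes did not overlap in WT and 51.5% in mutants). Its log2 fold change against frontal cortex was -0.56 (SE 0.08; edgeR, adjusted p = 6.11e-05) in WT and -0.40 (SE 0.08; adjusted p = 0.00121) in mutants, and within animals it was below 0 in 6 of 6. Striatum against frontal cortex was 0.05 (SE 0.08) in WT, which did not pass, and 0.30 (SE 0.08; edgeR, adjusted p = 0.00630) in mutants.

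*Meg3*, at 851, 780.3 and 529 CPM in the striatum of WT animals 1 to 3 and 588, 1016 and 597 CPM in that of mutants, did not pass in any region comparison in the main test. In hippocampus it measured 701, 545 and 285 CPM in WT and 233, 665 and 262 CPM in mutants. Every animal had less *Meg3* in hippocampus than in frontal cortex, by 0.43 to 1.35 on the log2 scale. With the animal as a block this gave -1.08 (SE 0.14) in WT and -0.75 (SE 0.14) in mutants, and both were called. Without the block, hippocampus against frontal cortex was also called in WT without the filter on low counts (-1.03), with lane in the fit (-1.06), without animal 3 in frontal cortex (-1.23) or animal 1 in hippocampus (-1.32). The estimate was -1.03 with all WT libraries and -0.74 without animal 3 in hippocampus. In mutants it was -0.66 and not called, was -0.28 without animal 2 in frontal cortex, and was called without animal 2 in hippocampus (-1.31). Mutant striatum against hippocampus, at 0.92, was called with the block (1.04, SE 0.14) or without animal 2 in hippocampus (1.57), and was at 0.62 without animal 2 in striatum. In WT the same comparison was also called with the block (0.56, SE 0.14). Striatum against frontal cortex was called with the block in WT, at -0.52 (SE 0.14), and not in mutants, at 0.29 (SE 0.14).

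*Mirg* followed *Meg3* at far lower levels, with 8.14, 8.24 and 5.00 CPM in the striatum of WT animals 1 to 3 and 5.89, 10.2 and 5.97 CPM in that of mutants. In hippocampus it had 6.55, 5.43 and 2.65 CPM in WT and 2.27, 4.70 and 2.69 CPM in mutants. Every animal was again lower in hippocampus than in frontal cortex and than in striatum. Without the block only mutant striatum against hippocampus was called, at 1.21 (SE 0.37; edgeR, adjusted p = 0.0149), and this call was lost without mutant animal 2 in striatum (0.90) or without mutant animal 1 or 3 in hippocampus (1.02 and 1.10). Mutant hippocampus against frontal cortex, at -0.74, was called with the block (-0.73, SE 0.13) or without mutant animal 2 in hippocampus (-1.09), and was at -0.41 without mutant animal 2 in frontal cortex. With the block, WT hippocampus against frontal cortex (-0.82, SE 0.12) and WT striatum against hippocampus (0.59, SE 0.12) were called as well. Striatum against frontal cortex was called with the block in mutants (0.48, SE 0.12) and not in WT (-0.23, SE 0.12).

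*Snhg11* had 467, 384 and 295 CPM in the striatum of WT animals 1 to 3 and 264, 517 and 293 CPM in that of mutants. In hippocampus it had 355, 291 and 171.0 CPM in WT and 136, 335 and 158 CPM in mutants. It was lower in hippocampus than in frontal cortex in 6 of 6 animals, by 0.60 to 1.39 on the log2 scale. WT hippocampus against frontal cortex was called, at -1.22 (SE 0.37; edgeR, adjusted p = 0.0155), and the call was lost without WT animal 1 in frontal cortex (-1.07) or WT animal 3 in hippocampus (-0.98). In mutants it was called with the block (-0.84, SE 0.10) or without mutant animal 2 in hippocampus (-1.29), and not otherwise (-0.78, SE 0.37), and it was -0.45 without mutant animal 2 in frontal cortex. Mutant striatum against hippocampus, at 0.77, was likewise called with the block (0.82, SE 0.10) or without mutant animal 2 in hippocampus (1.29), and was at 0.42 without mutant animal 2 in striatum. In WT the same comparison was also called with the block (0.53, SE 0.10). WT striatum against frontal cortex, at -0.73 (SE 0.37), was called only with the block (-0.72, SE 0.10).

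*Neat1* ran the other way. In frontal cortex it had 45.6, 33.8 and 17.7 CPM in WT animals 1 to 3 and 22.0, 29.2 and 17.3 CPM in mutants, in striatum 74.0, 81.0 and 41.2 CPM and 37.0, 82.1 and 36.6 CPM, and in hippocampus 119.8, 48.6 and 44.8 CPM and 48.5, 41.5 and 42.6 CPM. Each of the 6 animals had more *Neat1* in striatum and in hippocampus than in frontal cortex. Hippocampus against frontal cortex was called in WT, at 1.13 (SE 0.41; edgeR, adjusted p = 0.0399), and the call was lost without WT animal 1 in hippocampus (0.53) or WT animal 2 or 3 in frontal cortex (1.16 and 0.84). Striatum against frontal cortex was called in mutants, at 1.19 (SE 0.42; edgeR, adjusted p = 0.0252), and lost without mutant animal 2 in striatum (0.69) or mutant animal 1 or 3 in frontal cortex (1.16 and 1.02), and with lane in the fit (0.89). In WT, striatum against frontal cortex was at 1.01 (SE 0.41) and missed the threshold in the main test. It was called without animal 3 in striatum (1.26) or animal 1 in frontal cortex (1.34), and at 1.02 to 1.40 with library totals, other filters or lane. With the animal as a block both regions were called above frontal cortex in each genotype, at 1.01 to 1.14 (SE 0.25 to 0.26). Summed oligodendrocyte markers were also higher outside the frontal cortex, at 5092 to 10142 CPM in WT hippocampus and 9655 to 9854 CPM in WT striatum, and at 3843 to 6316 CPM and 5855 to 9497 CPM in those regions of mutants, and their part in the level of *Neat1* was not tested.

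*Malat1* was highest on average in striatum, at 558, 445 and 540.0 CPM in WT animals 1 to 3 and 724, 323 and 489 CPM in mutants. The hippocampus had 482, 211 and 249 CPM in WT and 215, 244 and 268 CPM in mutants. All 6 animals had more *Malat1* in striatum than in hippocampus, by 0.21 to 1.75 on the log2 scale. The difference was called in mutants, at 1.08 (SE 0.37; edgeR, adjusted p = 0.0275), and not in WT (0.71, SE 0.37) unless animal 1 was left out in hippocampus (1.16). The mutant call was lost without mutant animal 1 in striatum (0.74) or without mutant animal 1 or 2 in hippocampus (1.00 and 1.08). Mutant striatum against frontal cortex was called as well, at 0.93 (SE 0.37; edgeR, adjusted p = 0.0445), and lost without mutant animal 1 or 3 in either region (0.60 to 0.97) and with DESeq2 (0.94). Without mutant animal 2 in frontal cortex it was 1.57.

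Whether the genotype difference varied among regions was tested as an interaction. No member of the 7 was called (0.0114% of all genes), none had an unadjusted p under 0.05 (5.54% of all genes), and each adjusted p was 1 by edgeR. DESeq2 called none either. With the animal as a block, *Snhg11*, *Mirg*, *Miat* and *Meg3* had an unadjusted p of 0.00111, 0.00238, 0.00424 and 0.00482 by edgeR. After adjustment these were 0.251 to 0.329, so that 0 of 7 members, and 0 of the 17545 genes, were called.

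The spread within groups was large for 6 of the 7 members, and for 4 of them it followed the animal. *Meg3*, *Mirg*, *Miat* and *Snhg11* were above the mean of their group in all 3 regions of WT animals 1 and 2 and of mutant animal 2, and below it in all 3 regions of WT animal 3 and of mutant animals 1 and 3. Within groups, the SD of log2 CPM was 0.51 to 0.61 for all members but *Rian*, at the 98.1st to 99.0th percentile of 12870 genes whose log2 CPM averaged 1 or more. *Rian* had an SD of 0.10, at the 31.4th percentile, and the median gene had 0.13.

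The share of this spread that lay between animals, the rest being spread among regions of 1 animal, was 96.6% for *Miat*, 95.3% for *Snhg11*, 94.8% for *Mirg* and 91.8% for *Meg3*. It was 71.0% for *Neat1*, 43.8% for *Rian* and 23.4% for *Malat1*, and 46.0% for the median gene. A test for any difference between animals of 1 genotype, added after this spread had been seen, called 5 of 7 members (5.88% of all genes). By edgeR the adjusted p was 7.79e-06 for *Miat*, 5.59e-05 for *Snhg11*, 3.70e-04 for *Mirg*, 4.53e-04 for *Meg3* and 0.0429 for *Neat1*, and *Malat1* (0.651) and *Rian* (0.495) did not pass. The call of *Neat1* was lost in 13 of 18 cases when 1 library was left out.

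*Miat* shows the pattern at its clearest. The library of mutant animal 2 stood above its group mean by 0.70 in frontal cortex, 0.74 in striatum and 0.77 in hippocampus on the log2 scale. For WT animal 3 the deviations were -0.57, -0.57 and -0.77, and for WT animal 1 they were 0.39, 0.38 and 0.44. Mutant animals 1 and 3 varied more between regions, at -0.18, -0.53 and -0.38 and at -0.52, -0.21 and -0.39, while each stayed below its group mean. *Meg3* deviated by 0.62, 0.52 and 0.95 in mutant animal 2 and by -0.48, -0.42 and -0.74 in WT animal 3, in the same order of regions.

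*Malat1* did not behave in this way. Mutant animal 2 was 0.95 above its group mean in frontal cortex, 0.59 below it in striatum and 0.02 above it in hippocampus, and mutant animal 1 was 0.64 below, 0.58 above and 0.17 below. In WT mice, animal 1 was the highest and animal 2 the lowest in all 3 regions. *Neat1* was lowest in WT animal 3 in all 3 regions, with no such order among mutants.

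**Figure D4:**
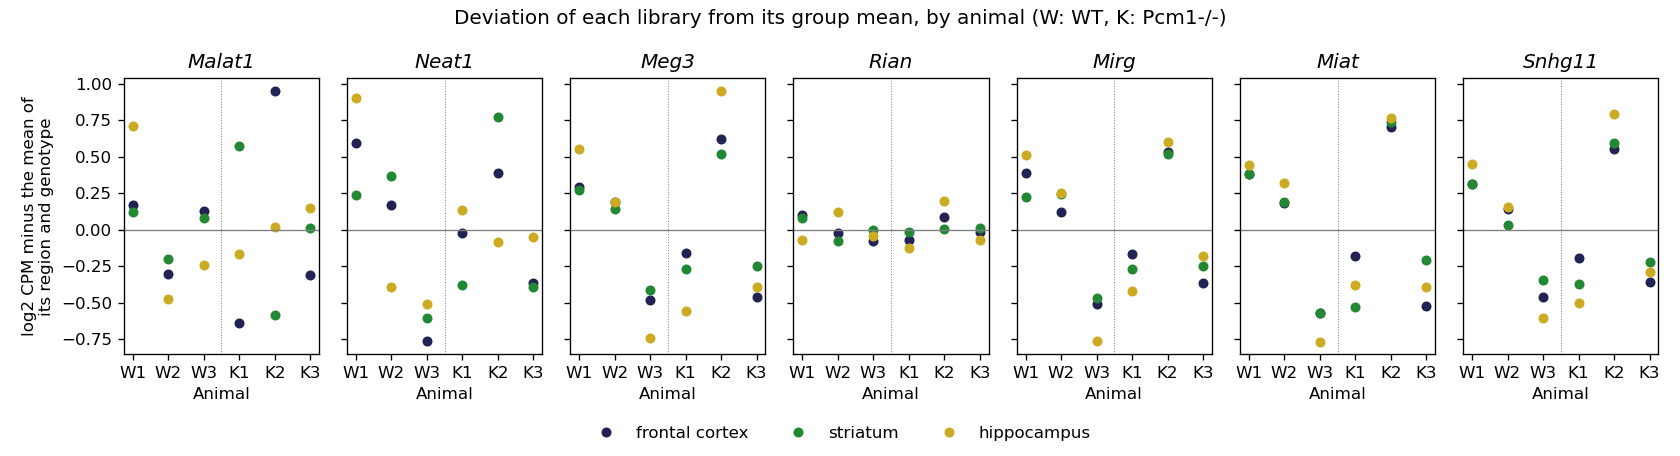
Deviation of each library from the mean log2 CPM of its region and genotype (y axis) by animal (x axis; W1 to W3 are WT animals, K1 to K3 are *Pcm1*-/- animals), coloured by region. For *Meg3*, *Mirg*, *Miat* and *Snhg11* the 3 regions of an animal lie on the same side of 0 in all 6 animals, those of *Rian* stay within 0.20 of 0, and those of *Malat1* spread to both sides.

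Over the 18 libraries, deviations of *Meg3*, *Mirg*, *Miat* and *Snhg11* correlated with one another at 0.968 to 0.989 (Pearson r, 6 pairs). *Neat1* correlated with these 4 at 0.665 to 0.762, *Rian* at 0.575 to 0.669, and *Malat1* with the other 6 at 0.123 to 0.233. These are descriptions, since the 18 libraries come from 6 animals and share depth and composition. *Meg3* and its neighbour *Rian*, 32213 bases apart on 1 strand, had an SD of 0.57 and 0.10, while *Meg3* and *Snhg11*, on different chromosomes, had nearly the same deviations.

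**Figure D5:**
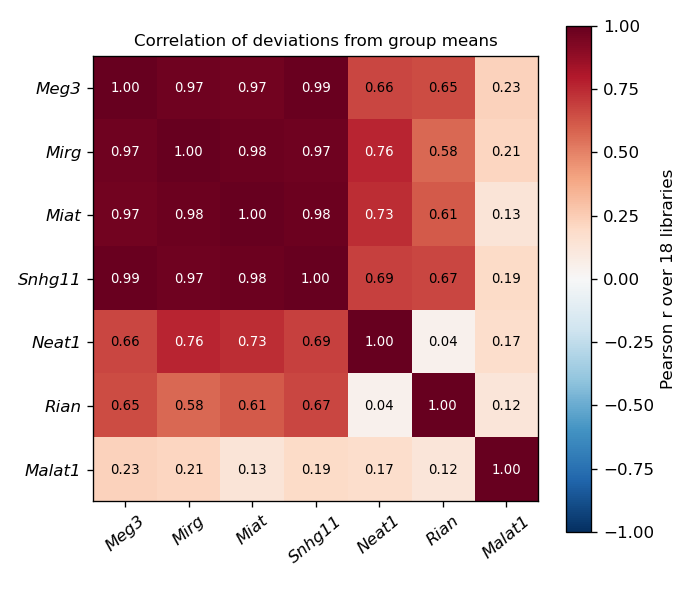
Pearson correlation, over 18 libraries, of the deviations from group means between each pair of the 7 long noncoding RNAs, from -1 (blue) to 1 (red). *Meg3*, *Mirg*, *Miat* and *Snhg11* form a block at 0.968 or above, and the row of *Malat1* holds the lowest values apart from the pair of *Neat1* and *Rian*.

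Among 12869 other genes, those with the deviations most like each member were searched. For *Meg3* these were *Snhg11* (r = 0.989), *Mir124a-1hg* (0.983) and *Srsf11* (0.974), and for *Snhg11* they were *Meg3*, *Mir124a-1hg* (0.987) and *Pabpn1* (0.980). *Mir124a-1hg*, the host transcript of the neuronal miR-124, was the first for *Mirg* (0.991) and for *Miat* (0.982). *Srsf11* encodes a splicing factor and *Pabpn1* the nuclear poly(A)-binding protein. *Neat1* was most like *Sox10* (0.961), a transcription factor of oligodendrocytes, *Irf3* (0.943) and *Zbtb7b* (0.940), and *Rian* most like *Rfng* (0.914), *Faim2* (0.899) and *Srpk1* (0.899). *Malat1* was most like *Cep250* (0.913), *Cdr1* (0.899) and *Timmdc1* (0.865). Over the levels themselves, which include the differences among groups, *Meg3* was most like *Snhg11* (0.979) and *Mirg* (0.973), *Miat* most like *Spred3* (0.9753), and *Rian* most like *Fcho1* (0.971).

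Some genes of the other lists differed between animals as well, to be read against the 5.88% of all genes called. Among nuclear speckle and splicing factors, 4 of 15 were called (*Srsf5*, *Clk1*, *Srrm1* and *Clk4*), and among paraspeckle proteins 2 of 14 (*Sfpq* and *Dazap1*). Of 16 other long noncoding RNAs tested, 4 were called, *Mir124a-1hg* with the smallest p (edgeR, adjusted p = 1.66e-05). Of 12 small nucleolar RNA hosts, *Gas5* was called besides *Snhg11*, and *Sf1* was the 1 called of 9 *Miat* partners and *Zfp57* the 1 called of 10 DNA methylation and imprinting factors. In the *Dlk1*-*Dio3* domain, none of the other 12 genes tested was called besides *Meg3* and *Mirg*. Of the marker lists, 6 of 8 microglia markers, 3 of 6 endothelial markers, 2 of 5 oligodendrocyte precursor markers and 1 of 8 astrocyte markers were called, and 0 of 10 neuron and 0 of 8 oligodendrocyte markers.

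The share of counts on mitochondrial genes, 3.15% to 7.55% per library, moved with the 4 members. Its deviations (log2) correlated with theirs at 0.802 to 0.888 over 18 libraries, with those of *Neat1* at 0.663, of *Rian* at 0.465 and of *Malat1* at 0.252. Summed neuron markers correlated with the 4 at 0.356 to 0.449 and summed microglia markers at -0.126 to -0.0752. The marker sums of the regions gave 0.448 to 0.577 for frontal cortex, 0.376 to 0.535 for striatum and -0.558 to -0.418 for hippocampus. The share of reads that fell on no gene correlated with *Malat1* at 0.742 and with the 4 at 0.327 to 0.483. Of the 3 animals above their group mean, mutant animal 2 and WT animal 2 were male and WT animal 1 was female. The part of mitochondrial reads, sex, dissection or RNA quality in these differences between animals was not tested.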

How the data were processed

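Whole-transcript levels were measured in 18 brain libraries made with a stranded mRNA kit. The authors trimmed reads with Trim Galore and cutadapt, aligned them with STAR and counted them per Ensembl gene with HTSeq, and deposited 1 file of raw read counts per library. The methods name GrCm38r73, and tool versions are not given in the sources used here. The 5 summary lines of each file (no feature, ambiguous and so on) were left out of totals and tests. Symbols and coordinates came from GENCODE M21 on GRCm38, a later annotation than that of the counts, and promoters and miRNAs from RefSeq on GRCm38.p6.

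Genes with at least 10 counts in any library (17545) were normalized by TMM and tested with edgeR 4.0.16 (quasi-likelihood F test, R 4.3.3), with Benjamini-Hochberg adjustment over all of them and a threshold of 0.05. Genotypes were compared within each region, and regions and the interaction in a fit of all 18 libraries. CPM are TMM-normalized, and log2 CPM use a prior count of 2. The pipeline was tested on simulated counts. DESeq2 1.42.0, other filters and scalings, lane, the animal, the replicate number and leaving out single libraries were alternatives. Animals were tied across regions by a tag in the names of the deposited files, since each mouse gave 3 regions and the labels do not state the tie. Libraries of the same animal correlated at 0.0801 to 0.386 over genes after removal of group means (18 pairs), and those of different animals at -0.291 to 0.102 (36 pairs). The labels give no tie between WT and mutant animals of the same replicate number.

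The 7 genes, the gene lists and the tests were chosen with earlier results of these data known. Named besides the 7 were genes of each list that passed a genotype test or, where none did, the 3 with the smallest p, and the 3 genes most like each member. Biological coefficients of variation were 9.49%, 13.8% and 16.4% in frontal cortex, striatum and hippocampus. Counts of 69 and more per member and library leave a counting error smaller than the spread between animals.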

Additional observations from a re-analysis of the deposited data

Results flagged for a closer look

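The difference between striatum and frontal cortex in *Meg3* ran in opposite directions in the 2 genotypes. Within animals it was -0.56 to -0.46 on the log2 scale in WT, below 0 in 3 of 3, and 0.18 to 0.50 in mutants, above 0 in 3 of 3, and the means differed by 0.808. *Mirg* showed the same, at -0.39 to -0.11 in WT and 0.37 to 0.59 in mutants, a difference of the means of 0.703. The means of the other members also lay higher in mutants, by 0.700 for *Snhg11*, 0.617 for *Malat1*, 0.473 for *Miat*, 0.251 for *Rian* and 0.050 for *Neat1*. Of 17545 genes, 1.17% had the animals of the 2 genotypes on opposite sides of 0 in this comparison. With lane in the fit, mutant *Meg3* was at -0.16, on the side of WT, and WT *Mirg* at 0.12, on the side of mutants, and without mutant animal 2 in striatum mutant *Meg3* was at -0.044. The interaction itself did not pass for either gene in edgeR (adjusted p = 1 each; with the animal as a block 0.329 for *Meg3* and 0.278 for *Mirg*). In striatum the lane was confounded with the genotype, and their effects cannot be told apart.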

How the results depend on the processing

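With 3 animals per genotype and large differences between them, genotype differences of *Rian* were estimated far more closely than those of the other 6 genes. Of 778 values recomputed under other settings, 706 kept their direction and their side of the threshold or moved within the spread, and of 720 values with 1 library left out, 640 did. No call by genotype was lost, since none was made. With the replicate number as a block, *Meg3* (-0.81) and *Snhg11* (-0.84) passed in frontal cortex, so 2 members were called instead of 0 (3.79% of all genes instead of 1.74%), and 0 in the other regions. The labels do not say what a number shares between genotypes. Same-number libraries correlated at 0.0428 to 0.260 in frontal cortex, where every library correlated best with its own number, a hint from the data only. In hippocampus same-number libraries correlated at 0.0955 to 0.507. There WT 1 correlated better with mutant 3 (0.221) and WT 3 with mutant 1 (0.232) than with their own numbers. In striatum they correlated at -0.269 to 0.178 by the numbers of the labels, which the block used and which differ from the animal numbers in WT, and at 0.0635, 0.229 and 0.388 by animal number. Animal 2 was male in both genotypes. DESeq2 called 4.88%, 3.84% and 1.54% of the 14092, 12722 and 13781 genes to which it gave an adjusted p, by genotype in frontal cortex, striatum and hippocampus, and 0 members.

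In the fit of all libraries with lane, the genotype estimate in striatum turned to 0.37 for *Malat1*, -0.52 for *Meg3* and -0.41 for *Mirg*. WT striatum against frontal cortex turned to 0.12 for *Mirg*, WT striatum against hippocampus to 0.28 for *Neat1*, and mutant striatum against frontal cortex to -0.16 for *Meg3*. With lane within the region, *Rian* by genotype in hippocampus was 0.0066. *Snhg11* in mutant striatum against frontal cortex was 0.051 with library totals as the only scaling and 0.0033 without the filter. In WT striatum against frontal cortex, 2 members were called at an adjusted p under 0.1, with library totals, without the filter, with filterByExpr and with lane, and 4 with the animal as a block. At an adjusted p under 0.1, WT hippocampus against frontal cortex had 5 and mutant hippocampus against frontal cortex 2. With the animal as a block there were 6 and 5, and 5 in WT striatum against hippocampus. The cause was not tested, apart from the looser threshold and the removal of the animals' own level by the block.

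When 1 library was left out, 0 to 1 members were called by genotype in frontal cortex, 1 to 2 in WT striatum against frontal cortex, 2 to 4 in mutant striatum against frontal cortex, 1 to 4 in mutant hippocampus against frontal cortex and 2 to 5 in mutant striatum against hippocampus. Estimates that changed sign ranged, by genotype in striatum, from -0.34 to 0.24 for *Malat1*, -0.28 to 0.17 for *Meg3*, -0.27 to 0.19 for *Mirg*, -0.60 to 0.12 for *Miat* and -0.46 to 0.088 for *Snhg11*. In hippocampus they ranged from -0.61 to 0.057 for *Malat1*, -0.14 to 0.014 for *Rian* and -0.65 to 0.051 for *Miat*. *Neat1* ranged from -0.35 to 0.49 in WT striatum against hippocampus and from -0.26 to 0.43 in mutants. Mutant striatum against frontal cortex ranged from -0.044 to 0.64 for *Meg3* and -0.37 to 0.32 for *Snhg11*, and mutant hippocampus against frontal cortex from -0.43 to 0.50 for *Malat1* and -0.71 to 0.22 for *Miat*. The difference between animals in *Neat1* was lost with library totals (edgeR, adjusted p = 0.0710) and with lane (0.197), within a range of 0.00461 to 0.197 over its alternatives.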
